A study of Mus musculus with 13 samples.

Results

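The genes described here encode enzymes that lengthen and desaturate fatty acids in the liver. They are the desaturases Scd1, Scd2, Fads1 and Fads2 and the elongases Elovl1, Elovl2, Elovl3, Elovl5 and Elovl6. These 9 genes were chosen by symbol. A gene's level was read from a probe set that carries its symbol and no other. On the array, 22180 genes had such a probe set, among them 8 of the 9 genes, with 1 each. The probe set of Scd2 also carries the symbol of a microRNA gene and was left out of the comparisons. All 8 remaining genes passed the filter on dim genes, as did 13308 genes in all.

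Liver RNA came from male C57Bl/6J mice. From an age of 6 weeks they ate a diet with 60% fat, on which they became obese over 4 weeks. For the next 4 weeks, the CANA group (4 arrays) received canagliflozin at 25 to 30 mg/kg while staying on that diet. The CR group (5 arrays) was given 15 to 30% fewer calories so that its weight matched that of the CANA group, and the HFD group (4 arrays) stayed on the diet with no drug. All groups therefore shared the diet-induced obesity, and no lean group was analysed here. Canagliflozin inhibits SGLT2, the transporter that takes glucose back from the urine in the kidney. Values are log2 signals of Affymetrix mouse gene arrays, and a difference of 1 is a doubling of signal. Whether the arrays of a group stand for separate animals is not stated in the labels, so p-values measure the spread between these arrays.

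Fatty acids made in the liver leave fatty acid synthase mainly as palmitate, a saturated chain. Elongases of the endoplasmic reticulum add carbons to palmitate or to dietary fatty acids, each enzyme preferring chains of a certain length and saturation, and desaturases place double bonds with electrons passed on by cytochrome b5. Stearoyl-CoA desaturase makes monounsaturated fatty acids for triglyceride and membrane lipids, while Fads1 and Fads2 with Elovl5 and Elovl2 turn essential dietary fatty acids into arachidonic and docosahexaenoic acid. In liver, many of these genes are known targets of SREBP-1, LXR and PPAR-alpha.

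The arrays had log2 medians between 4.07 and 4.13, and the lowest correlation between any pair was 0.971 over probe sets. Hepatocyte markers were high in every group, in keeping with the labelled tissue. The summed log2 level of the 7 tested markers lay at 88.88 to 89.61 in CANA, 89.08 to 89.63 in CR and 89.13 to 89.49 in HFD. The summed levels of the marker lists for other liver cell types and for fat overlapped between all groups. No marker was called by limma, which called at most 0.165% of all tested genes in a comparison. Single markers still leaned between groups. In CANA minus CR, 6 of 6 Kupffer cell markers were above zero (median 0.20), as were 6498 of all 13308 tested genes. There, 6 of 6 endothelial markers were below zero (median -0.12) and 3 of 3 tested fat cell markers above it (median 0.30). Of the Kupffer cell markers, 5 of 6 were below zero in CR minus HFD (median -0.15) and 5 of 6 above it in CANA minus HFD (median 0.12). The 3 tested fat cell markers had a median of 0.10 in CANA minus HFD, with Fabp4 at 0.68, Plin1 at 0.10 and Retn at 0.00. The stellate cell list was mixed in both comparisons of CANA, with 4 of 7 markers above zero and 3 below. Its marker Rgs5 differed by 0.61 in CANA minus HFD (limma adjusted p = 0.380) and 0.58 in CANA minus CR (adjusted p = 0.446). The part of these markers in the results below was not tested. The labels also carry a serial number, and every group had arrays among numbers 1 to 8 and among numbers 9 to 14. Values within these sets are given for Scd1, Elovl3 and Elovl6 beside their results and for the other 5 genes after them. Since bulk liver RNA was measured, fewer cells of a type cannot be told apart from less RNA per cell.

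Of the 8 genes, Scd1 had lower values in CANA livers than in both other groups and Elovl3 had higher values in CANA livers than in HFD livers, while the other 6 genes differed by at most 0.24 in any comparison. None of these differences passed an adjusted p of 0.05 over all genes. In limma, 0 of the 8 genes were called in CANA against HFD, where 0.165% of all tested genes were called. The count was 0 in CR against HFD too, where 0% of genes were called, and 0 in CANA against CR, where 0.150% were called. At an unadjusted p under 0.05, the counts were 2 of 8 in CANA against HFD, 1 of 8 in CR against HFD and 1 of 8 in CANA against CR, against 8.82%, 3.74% and 8.43% of all genes. The first comparison asks what the drug does on the diet, the second what restriction to the same weight does, and the third how they differ at matched weight.

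**Figure D1:**
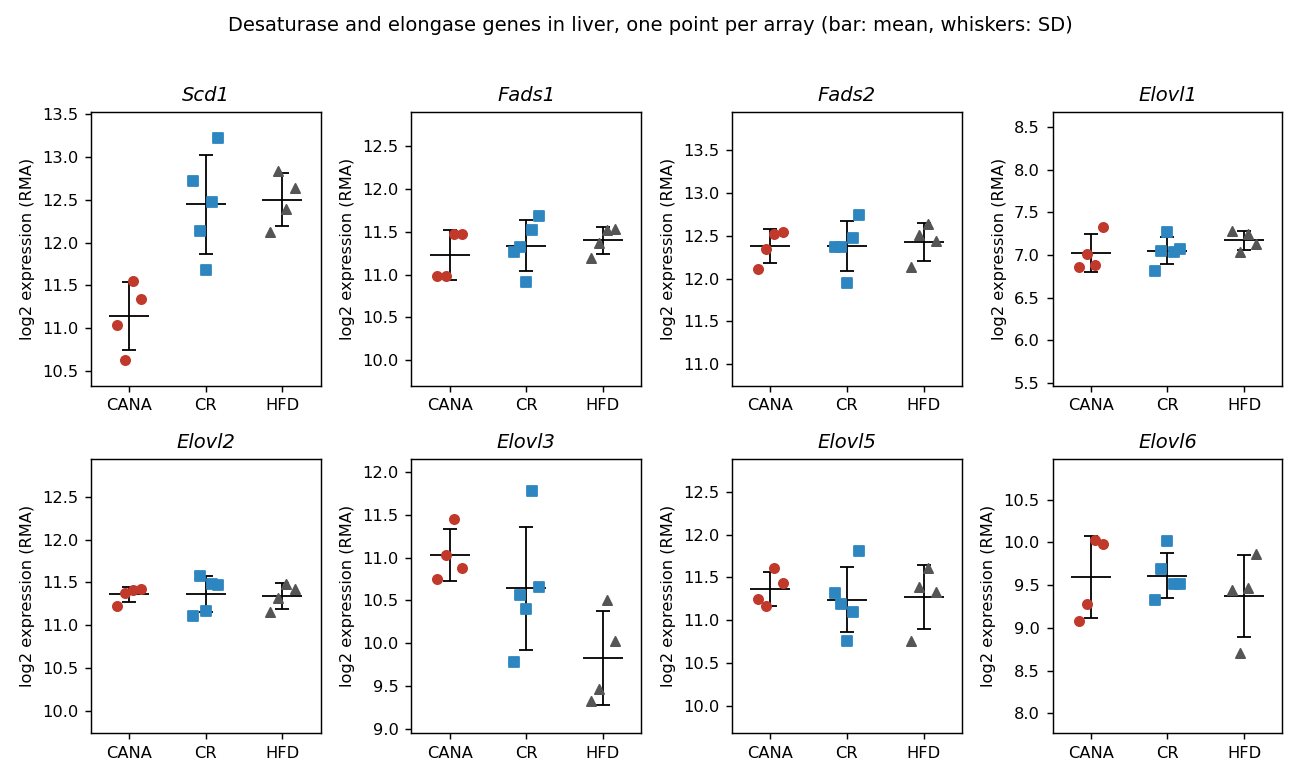
Log2 signal of each gene on each of the 13 arrays, with CANA left of CR and CR left of HFD; points are arrays, the horizontal bar is the group mean and the whiskers are its SD (n = 4, 5 and 4). The 4 CANA arrays of Scd1 lie between 10.63 and 11.55, below every other array, while those of Elovl3 lie between 10.75 and 11.45, above every HFD array.

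Scd1, the stearoyl-CoA desaturase that makes oleate and palmitoleate, was the desaturase with the widest range over the arrays, 2.60 on the log2 scale. It read 11.04, 10.63, 11.55 and 11.34 in CANA livers. It read 12.72, 12.13, 11.68, 12.48 and 13.22 in CR livers, and 12.12, 12.84, 12.39 and 12.64 in HFD livers. All 4 CANA arrays were lower than all other arrays, while the CR arrays spread around the HFD arrays on both sides. The means were 11.14 ± 0.40 in CANA, 12.45 ± 0.58 in CR and 12.50 ± 0.31 in HFD (SD). The CANA minus HFD difference was -1.36 (SE 0.27, 95% interval -1.93 to -0.78), a signal in CANA of 0.391 times that in HFD. It missed the threshold, with a limma adjusted p of 0.0609, and ranked 28 by p among all genes. An exact two-sided permutation test of this gene alone gave p = 0.0286, the smallest that 4 against 4 arrays allow.

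At matched weight the gap was of similar size. The CANA minus CR difference of Scd1 was -1.31 (SE 0.26, 95% interval -1.85 to -0.76), or 0.404 times the CR signal, with a limma adjusted p of 0.0640. The exact permutation test gave p = 0.0159 here. CR minus HFD was -0.05 (SE 0.26, limma adjusted p = 0.999), and its 95% interval of -0.59 to 0.49 leaves room for a change in either direction. Arrays of the CANA and HFD groups did not overlap for Scd1, as for 2.77% of all tested genes in this direction, and CANA lay wholly below CR, as for 1.51%. Counted in either direction, the arrays did not overlap for 2 of the 8 genes in CANA against HFD (4.90% of all genes), 0 of 8 in CR against HFD (1.17%) and 1 of 8 in CANA against CR (2.93%).

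The difference of Scd1 between CANA and the other groups was present in both serial-number sets. Among numbers 1 to 8 the means were 10.84 in CANA, 12.18 in CR and 12.48 in HFD. Among numbers 9 to 14 they were 11.45 in CANA, 12.85 in CR and 12.52 in HFD. CANA minus HFD was thus -1.64 and -1.07, and CANA minus CR -1.34 and -1.40, while CR minus HFD turned sign, at -0.30 and 0.33. Whether limma called Scd1 depended on the setting: its adjusted p in CANA against HFD was between 0.0182 and 0.312 over 28 refits with other settings, and under 0.05 in 6 of them. Without CR array 3 or CR array 5 the adjusted p was 0.0365 or 0.0266. In CANA against CR it was 0.0194 without CR array 3, with a difference of -1.50.

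Fads1 and Fads2 encode the desaturases of the polyunsaturated pathway, and their genes lie next to each other in the mouse genome. Fads1, which catalyses the last desaturation on the way to arachidonic acid, read 10.98, 10.98, 11.48 and 11.48 in CANA livers. Its values were 11.27, 11.32, 10.91, 11.52 and 11.69 in CR livers, and 11.19, 11.37, 11.52 and 11.54 in HFD livers. The groups overlapped, and the lowest and the highest array were both CR arrays. Fads1 differed by -0.17 in CANA minus HFD (95% interval -0.52 to 0.17, limma adjusted p = 0.836) and by -0.11 in CANA minus CR (-0.44 to 0.22, adjusted p = 0.892). In CR minus HFD it differed by -0.06 (-0.39 to 0.27, adjusted p = 0.999).

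Fads2, the desaturase that takes the first step from linoleic and alpha-linolenic acid, read 12.11, 12.34, 12.52 and 12.54 in CANA livers. It read 12.37, 12.37, 11.95, 12.47 and 12.74 in CR livers, and 12.13, 12.51, 12.64 and 12.44 in HFD livers. The means were 12.38 ± 0.20 in CANA, 12.38 ± 0.29 in CR and 12.43 ± 0.22 in HFD (SD), closer together than the arrays within any group. CANA minus HFD was -0.05 (95% interval -0.38 to 0.28, limma adjusted p = 0.969), CR minus HFD -0.05 (-0.36 to 0.27, adjusted p = 0.999) and CANA minus CR -0.00 (-0.31 to 0.31, adjusted p = 0.999). In CANA minus HFD, Scd1 stood at -1.36 (95% interval -1.93 to -0.78). Scd1 was singled out after its values were seen, so no test between these genes is given.

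Elovl6 extends palmitate to stearate, the chain that stearoyl-CoA desaturase then desaturates. It read 9.08, 9.28, 10.03 and 9.98 in CANA livers, 9.33, 9.69, 10.02, 9.51 and 9.51 in CR livers, and 9.44, 8.71, 9.46 and 9.86 in HFD livers. The groups overlapped, and the CANA arrays formed a lower pair and a higher pair that belong to different serial-number sets. The CANA minus HFD difference of Elovl6 was 0.22 (SE 0.24, 95% interval -0.29 to 0.73, limma adjusted p = 0.872) and CR minus HFD was 0.24 (SE 0.23, -0.24 to 0.73, adjusted p = 0.999). CANA minus CR was -0.02 (SE 0.23, -0.50 to 0.47, adjusted p = 0.994), and it was -0.50 among numbers 1 to 8 but 0.50 among numbers 9 to 14. Without HFD array 2, the lowest of all, CANA minus HFD was 0.00 and CR minus HFD 0.02.

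Elovl3, an elongase of saturated and monounsaturated chains known for its daily rhythm and sex difference in mouse liver and for brown fat, had the widest within-group spread of the 8 genes. It read 10.75, 11.03, 11.45 and 10.88 in CANA livers. It read 9.78, 10.56, 10.40, 11.78 and 10.66 in CR livers, and 9.32, 9.46, 10.51 and 10.02 in HFD livers. All CANA arrays were above all HFD arrays, whereas CR arrays reached from within the HFD range to the highest value of all 13. The means were 11.03 ± 0.30 in CANA, 10.64 ± 0.72 in CR and 9.83 ± 0.55 in HFD (SD). Of all tested genes, 2.13% had CANA arrays wholly above the HFD arrays.

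The CANA minus HFD difference of Elovl3 was 1.20 (SE 0.33, 95% interval 0.50 to 1.90), a signal of 2.30 times that in HFD. Its limma adjusted p was 0.210, at rank 146 of all genes, and the exact permutation test gave p = 0.0286. CR minus HFD was 0.81 (SE 0.31, 95% interval 0.14 to 1.47), or 1.75 times the HFD signal, with a limma adjusted p of 0.999 and an exact permutation p of 0.103. Elovl3 was the 1 gene of the 8 with an unadjusted p under 0.05 in CR against HFD. The difference was 0.52 without CR array 4, 0.64 without HFD array 1 and 0.69 without HFD array 2, and in each of these fits the unadjusted p was above 0.05. Without CR array 4, CANA minus CR was 0.68, against 0.39 with all arrays. CANA minus CR was 0.39 (SE 0.31, 95% interval -0.27 to 1.06, limma adjusted p = 0.785), and the difference between the drug and the restricted group was not detectable with these arrays. Within numbers 1 to 8 the differences were 1.50 in CANA minus HFD, 0.86 in CR minus HFD and 0.64 in CANA minus CR. Within numbers 9 to 14 they were 0.90, 0.95 and -0.05 in the same comparisons. Only a fit with the serial-number set as a block called Elovl3 in CANA against HFD (adjusted p = 0.0496).

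Elovl1, which extends saturated chains to the very long ones found in sphingolipids, read 6.86, 7.01, 6.88 and 7.33 in CANA livers. It read 6.81, 7.05, 7.27, 7.03 and 7.07 in CR livers, and 7.28, 7.04, 7.24 and 7.13 in HFD livers. CANA array 4 was the highest of all, and the other CANA arrays lay in the lower part of the range. CANA minus HFD was -0.15 (95% interval -0.40 to 0.10, limma adjusted p = 0.793), CR minus HFD -0.13 (-0.37 to 0.11, adjusted p = 0.999) and CANA minus CR -0.02 (-0.26 to 0.21, adjusted p = 0.979).

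Elovl5 extends polyunsaturated chains between the steps of Fads2 and Fads1. It read 11.25, 11.17, 11.61 and 11.43 in CANA livers, 11.32, 11.19, 10.76, 11.10 and 11.81 in CR livers, and 10.75, 11.39, 11.61 and 11.33 in HFD livers. The CANA arrays lay inside the range of both other groups. CANA minus HFD was 0.09 (95% interval -0.33 to 0.52, limma adjusted p = 0.954), CR minus HFD -0.03 (-0.44 to 0.37, adjusted p = 0.999) and CANA minus CR 0.13 (-0.28 to 0.53, adjusted p = 0.901).

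Elovl2, the elongase of the longest polyunsaturated chains on the way to docosahexaenoic acid, had the smallest range of the 8 genes, 0.46 over the 13 arrays. It read 11.23, 11.38, 11.41 and 11.42 in CANA livers, 11.11, 11.57, 11.17, 11.48 and 11.47 in CR livers, and 11.15, 11.32, 11.48 and 11.42 in HFD livers. The means were 11.36 ± 0.09 in CANA, 11.36 ± 0.21 in CR and 11.34 ± 0.15 in HFD (SD). Its differences were 0.02 in CANA minus HFD (95% interval -0.23 to 0.26, limma adjusted p = 0.988), 0.02 in CR minus HFD (-0.22 to 0.25, adjusted p = 0.999) and -0.00 in CANA minus CR (-0.23 to 0.23, adjusted p = 1.00). The intervals of Elovl2 were the narrowest of the 8 genes that were tested, together with those of Elovl1.

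Within the serial-number sets, Fads1, Fads2, Elovl1, Elovl5 and Elovl2 differed by at most 0.30 either way, which is given without a test. In CANA minus HFD, the values among numbers 1 to 8 and 9 to 14 were -0.30 and -0.05 for Fads1, -0.09 and -0.01 for Fads2, -0.23 and -0.08 for Elovl1, 0.14 and 0.05 for Elovl5, and 0.07 and -0.04 for Elovl2. In CR minus HFD they were -0.12 and 0.08 for Fads1, -0.09 and 0.07 for Fads2, -0.12 and -0.13 for Elovl1, 0.02 and -0.01 for Elovl5, and 0.05 and 0.02 for Elovl2. In CANA minus CR they were -0.19 and -0.12 for Fads1, -0.01 and -0.07 for Fads2, -0.10 and 0.05 for Elovl1, 0.12 and 0.06 for Elovl5, and 0.02 and -0.06 for Elovl2.

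**Figure D2:**
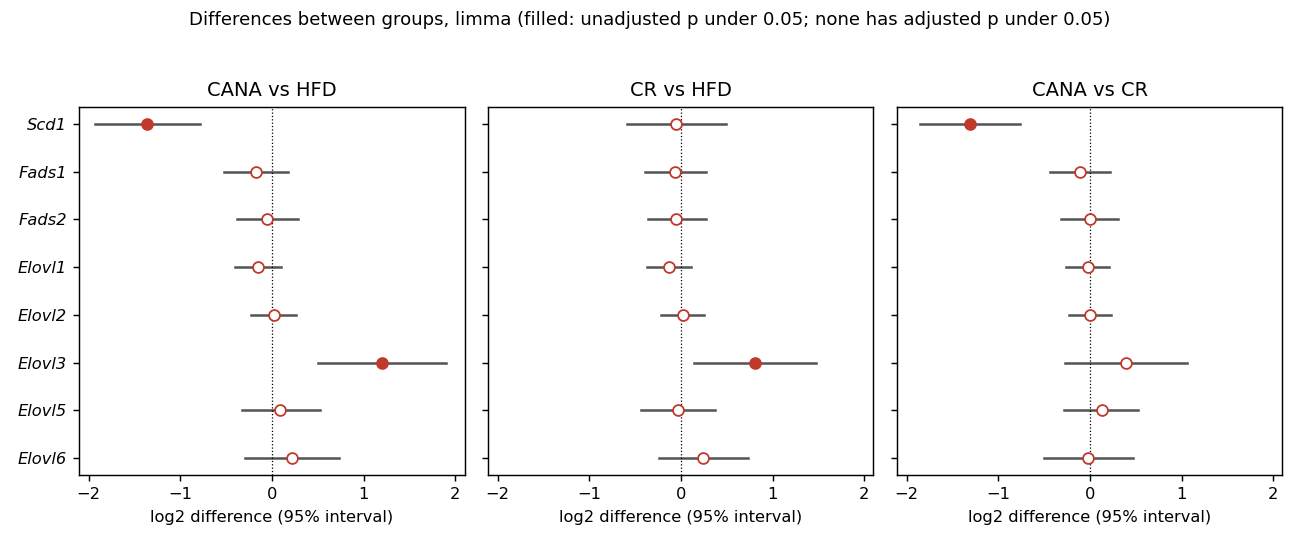
Log2 differences of the 8 genes in CANA minus HFD, CR minus HFD and CANA minus CR, with points for the fitted difference (filled at an unadjusted p under 0.05), bars for its 95% interval and a line at zero. The intervals of Scd1 lie below zero in both comparisons of CANA, and those of Elovl3 lie above zero in both comparisons with HFD; every other interval spans zero.

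Over the 8 genes, the median CANA minus HFD difference was -0.02, and that of all tested genes was -0.01. The median absolute difference was 0.16 for the 8 genes and 0.10 for all genes. In CR minus HFD the medians were -0.04 for the 8 genes and -0.01 for all, and in CANA minus CR -0.01 and -0.00. The signs were mixed in each comparison, with 4 genes above and 4 below zero in CANA minus HFD, 3 above and 5 below in CR minus HFD, and 2 above and 6 below in CANA minus CR. Within an array, Scd1 relative to each of the other 7 genes was lower in CANA than in HFD by 1.18 to 2.56 on the log2 scale, and the CANA and HFD arrays were apart for 7 of these 7 ratios. Against CR, arrays were apart for 5 of the 7 ratios. Scd1 was singled out after its values were seen, so these ratios are given as a description without a test.

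The genes differed in how much they varied among arrays of the same group. The within-group SD was 0.57 for Elovl3, 0.46 for Scd1, 0.41 for Elovl6 and 0.33 for Elovl5, against 0.17 for the median tested gene. These stood at percentiles 99.1, 98.3, 97.4 and 94.7 of all tested genes. Fads1 (0.26) and Fads2 (0.24) were in between, while Elovl1 (0.17) and Elovl2 (0.16) varied about as much as the median gene. The 2 genes with the largest group differences were thus also those with the largest spread inside groups.

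Deviations from the group means showed that part of this spread was shared. Pearson's r of the deviations was computed for all 28 pairs of the 8 genes over the 13 arrays, with permutation of arrays within groups and p-values adjusted over the 28 pairs. The adjusted permutation p was under 0.05 for 6 pairs, which are all the pairs among Scd1, Fads1, Fads2 and Elovl5. Of the 13307 other tested genes, between 0.0301% and 0.827% had an r with one of these genes at least as high as its partner's; at the far end, Scd1 stood at rank 110 for Fads2. The tightest pair was Fads1 with Fads2, at r = 0.907 (permutation p = 4.80e-04, adjusted p = 0.0134) and Spearman's rho = 0.885 (adjusted permutation p = 0.0363). Fads2 with Elovl5 had r = 0.901 (permutation p = 0.00126, adjusted p = 0.0175) and rho = 0.846 (adjusted permutation p = 0.0363). These 3 genes act in succession on the same polyunsaturated chains.

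Scd1, which acts on saturated chains, followed them. Its r was 0.834 with Elovl5 (permutation p = 0.00203, adjusted p = 0.0175), 0.815 with Fads1 (p = 0.00583, adjusted p = 0.0326) and 0.785 with Fads2 (p = 0.00843, adjusted p = 0.0393), each by permutation over 13 arrays. Fads1 with Elovl5 had r = 0.796 (permutation p = 0.00250, adjusted p = 0.0175). By Spearman's rho, Scd1 with Elovl5 passed the adjusted permutation p (rho = 0.797, 0.0426), and 3 pairs did not: Scd1 with Fads1 at 0.747, Scd1 with Fads2 at 0.720 and Fads1 with Elovl5 at 0.687, each with an adjusted permutation p of 0.0660. Without the 2 arrays whose level was farthest from the median of the first-named gene over all 13 arrays, r of the 6 pairs was between 0.708 and 0.926. The choice went by level and not by deviation, so arrays with large deviations could stay in. Whether r holds without those arrays was not tested.

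The same arrays carried this pattern in each gene. CR array 3 was below its group mean by -0.77 in Scd1, -0.43 in Fads1, -0.44 in Fads2 and -0.48 in Elovl5. CR array 5 was above it by 0.78 in Scd1, 0.35 in Fads1, 0.36 in Fads2 and 0.58 in Elovl5. HFD array 1 was low in all 4 genes (-0.38, -0.21, -0.30 and -0.52 in the same order) and CANA array 3 was high (0.41, 0.25, 0.14 and 0.24). The lower level of Scd1 in CANA livers was not shared by its 3 companions, whose CANA arrays lay among the others.

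**Figure D3:**
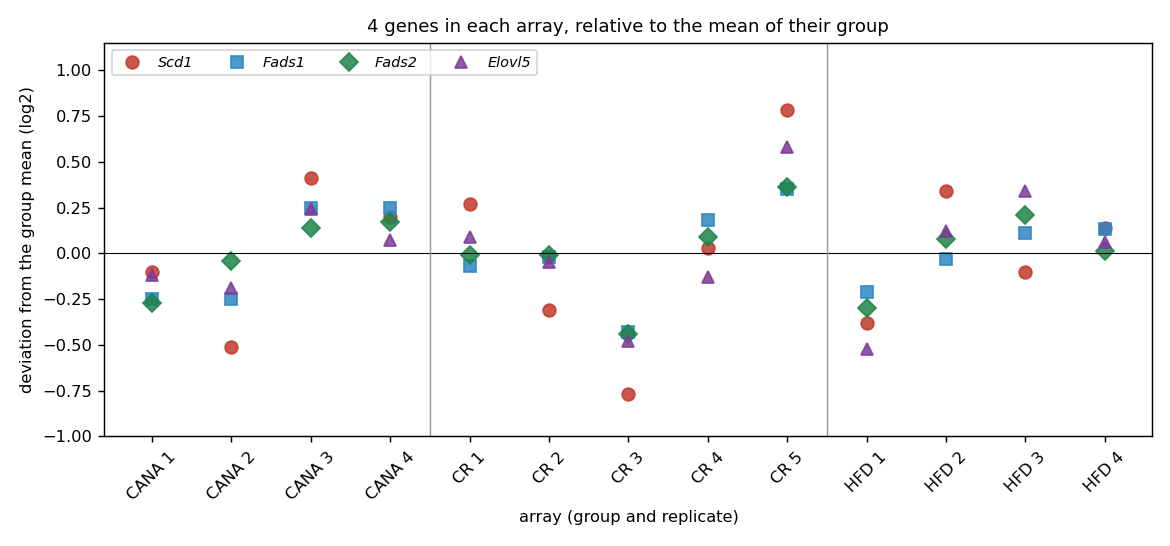
Deviations from the group mean (log2) of Scd1, Fads1, Fads2 and Elovl5 on each of the 13 arrays, with 1 symbol per gene and the arrays grouped as CANA, CR and HFD. All 4 symbols lie below zero at CR array 3 and HFD array 1 and above zero at CR array 5.

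The other 22 pairs ranged from -0.378 to 0.707 and none passed. Elovl2 came nearest, at 0.707 with Elovl3 (adjusted permutation p = 0.0669), 0.703 with Fads2 and 0.675 with Fads1. Elovl6 and Elovl1 were apart from the others: Elovl6 had r = -0.115 with Scd1, Elovl1 had r = -0.378 with Scd1, and the pair had 0.541 with each other. Of the 28 values, 22 were positive, with a median of 0.276. Within the serial-number sets this excess of positive values was absent: 14 of 28 were positive within numbers 1 to 8, and 12 of 28 within numbers 9 to 14. Fads1 with Elovl2, for example, had -0.315 within numbers 9 to 14, and Elovl1 with Elovl6 had -0.00841. These values rest on few arrays and on deviations from the means of whole groups, not of each set. The part of serial number in them was not tested.

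**Figure D4:**
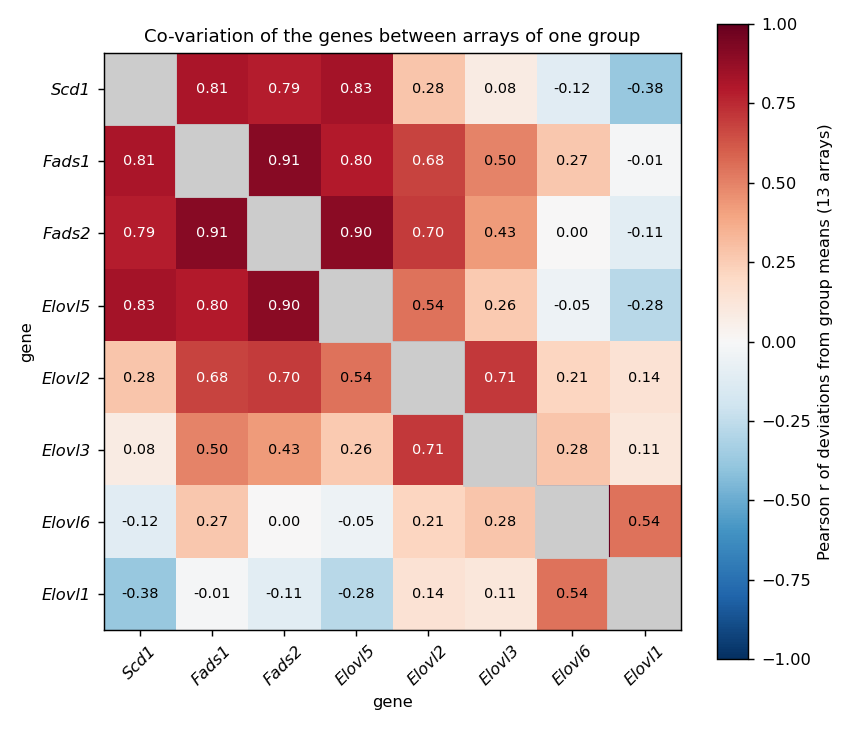
Pearson's r of deviations from group means for each pair of the 8 genes (n = 13 arrays), coloured by r with the value in each square. The squares among Scd1, Fads1, Fads2 and Elovl5 hold 0.785 to 0.907, and those of Elovl1 and Elovl6 with Scd1 are below zero.

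The arrays also differed by serial number, with no gene of the 8 passing the test. In a fit with group and serial number, the slope per number was positive for all 8 genes, against 47.5% of all tested genes. It was positive with an unadjusted limma p under 0.05 for 6 of the 8, against 5.88% of all. None passed the adjusted p of 0.05 (lowest 0.136, for Fads1 at 0.043 per number), as 0.376% of genes did. Fads1 (0.043 per number), Fads2 (0.034) and Elovl5 (0.039), which varied together with Scd1, were among the 6. Scd1 was not among the 6, at 0.044 per number (unadjusted p = 0.0812, limma adjusted p = 0.485). The steepest slopes were those of Elovl3 (0.074) and Elovl6 (0.051), outside the group of 4 genes that varied together. The part of serial number in the shared variation of those 4 genes was not tested. Within numbers 1 to 8, r was 0.864 for Fads1 with Fads2, 0.863 for Fads2 with Elovl5, 0.832 for Scd1 with Elovl5, 0.776 for Fads1 with Elovl5, 0.761 for Scd1 with Fads1 and 0.682 for Scd1 with Fads2. Within numbers 9 to 14, the same pairs had 0.699, 0.853, 0.640, 0.517, 0.924 and 0.638. Each set holds few arrays, the deviations were taken from the means of whole groups, and no test is given within a set.

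Promoters were read from the RefSeq table for GRCm38.p6, as 250 bases before to 50 after the start of transcription. It held entries for 5 of the 9 genes (7 promoters) and none for Scd1, Scd2, Fads1 and Elovl3. The windows of Fads2 and Elovl5, which varied together, and of Elovl6, which did not vary with them, are shown so that a reader can compare what precedes them; these 3 were picked after the values were seen. Capitals mark motif matches, and each sequence runs 5′ to 3′ on the gene's strand. Fads2 lies on the minus strand at chr19:10101454-10101753, Elovl5 on the plus strand at chr9:77917115-77917414 and Elovl6 on the plus strand at chr3:129532136-129532435.
Fads2: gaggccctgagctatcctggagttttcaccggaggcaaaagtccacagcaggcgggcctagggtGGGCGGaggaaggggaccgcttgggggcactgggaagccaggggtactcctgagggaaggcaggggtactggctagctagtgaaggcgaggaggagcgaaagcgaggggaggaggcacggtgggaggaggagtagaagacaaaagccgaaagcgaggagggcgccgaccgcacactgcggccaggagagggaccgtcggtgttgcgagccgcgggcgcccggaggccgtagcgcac
Elovl5: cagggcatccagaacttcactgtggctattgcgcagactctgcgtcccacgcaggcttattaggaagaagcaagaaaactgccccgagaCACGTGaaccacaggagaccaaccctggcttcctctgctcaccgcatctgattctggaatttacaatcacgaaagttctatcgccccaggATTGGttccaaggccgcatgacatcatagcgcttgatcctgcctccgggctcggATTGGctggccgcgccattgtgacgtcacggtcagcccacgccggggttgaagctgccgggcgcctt
Elovl6: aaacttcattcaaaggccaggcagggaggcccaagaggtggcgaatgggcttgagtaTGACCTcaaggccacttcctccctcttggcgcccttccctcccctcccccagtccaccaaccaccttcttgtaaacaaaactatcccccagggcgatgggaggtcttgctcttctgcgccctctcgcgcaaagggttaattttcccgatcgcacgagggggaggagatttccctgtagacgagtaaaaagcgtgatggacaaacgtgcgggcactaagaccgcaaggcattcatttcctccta
Searched on both strands were the sterol response element core TCACNCCAC, the NF-Y box CCAAT, the E-box CACGTG, the GC box GGGCGG and the nuclear receptor half-site AGGTCA. In Fads2 the capitals are 1 GC box that starts at -186 from the start site, a motif held by 35.7% of the 32851 RefSeq promoters of this length. In Elovl5 they are an E-box at -161 (7.15% of promoters; it reads the same on both strands) and 2 NF-Y boxes on the reverse strand at -71 and -17 (37.4%). In Elovl6 they are a nuclear receptor half-site on the reverse strand at -193 (16.3%). The sterol response core, in 1.24% of promoters, had 0 matches in the 7 windows. The printed motifs do not overlap. A match is a description of the letters, and the promoters of Fads2 and Elovl5 shared none of these motifs.

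Over all tested genes, those closest to the 8 were listed by r of their levels and by r of their deviations over 13 arrays. They were picked from 13307 genes each, so the values are descriptions. By deviations, Scd1 was closest to Cyp3a11 (0.928), a cytochrome P450 of drug and steroid metabolism, then to Gas6 (0.881) and Fcf1 (0.875). Fads1 was closest to Tm6sf2 (0.916), Cdc40 (0.915) and the sterol reductase gene Tm7sf2 (0.910). Fads2 was closest to Cyp2c38 (0.938), the lysosomal lipase gene Lipa (0.930) and Nudt6 (0.930). Elovl5 stood by Acss3 (0.932), Cyp4a14 (0.925) and Acot1 (0.907), and the last pair are known PPAR-alpha targets. Elovl2 stood by Mmab (0.955), Clcn4 (0.916) and Pglyrp2 (0.911).

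The other elongases had other neighbours. Elovl3 was closest by deviations to Mtmr4 (0.923), Sdc1 (0.910) and Ikbkb (0.889), Elovl6 to Casp8 (0.906), Zfp612 (0.895) and Tmem82 (0.889), and Elovl1 to Pot1b (0.897), Mettl21a (0.891) and Zfp566 (0.875). By levels, with the group differences included, Fads1 and Fads2 were again among each other's 3 closest genes (0.886), behind Gas6 (0.912) and Rad9a (0.892) for Fads1 and Lipa (0.896) and Slc16a7 (0.894) for Fads2. Elovl5 had Acss3 (0.897), Fads2 (0.877) and Csrp3 (0.867), and Scd1 had Gstt1 (0.887), Tcim (0.877) and Seh1l (0.869). Elovl3 had Sdc1 (0.896), Tspan18 (0.889) and Irf2bp2 (0.889), and Elovl2 had Clcn4 (0.907), the sterol oxidase gene Msmo1 (0.869) and Zfhx4 (0.864). For Elovl6 these were Casp8 (0.908), Gatc (0.846) and Zfp612 (0.838), and for Elovl1 Pot1b (0.881), Spast (0.828) and Amot (0.821).

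Of the genes that supply the substrates, 1 was called in both comparisons of CANA. All 7 tested genes for malonyl-CoA and palmitate were below zero in CANA minus HFD (median -0.51), as were 7170 of all 13308 genes (median -0.01), and all 7 in CANA minus CR (median -0.43), as were 6810 of all genes (median -0.00). The called gene was Fasn, the fatty acid synthase, which fell by 1.41 against HFD (limma adjusted p = 0.0109) and by 1.14 against CR (adjusted p = 0.0195). Fasn read 9.28, 8.71, 8.31 and 8.84 in CANA livers, below all of 10.07, 10.00, 9.81, 9.61 and 10.14 in CR livers and 10.00, 9.78, 10.49 and 10.51 in HFD livers. Acaca, which makes malonyl-CoA, differed by -0.53 in CANA minus HFD (adjusted p = 0.110), and Acly by -0.51 (adjusted p = 0.188). Acss2, with the smallest p after Fasn in CR minus HFD, stood at 0.36 there (adjusted p = 0.999).

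Scd1 and Fasn were both low in CANA livers but did not follow each other inside groups. Over the 13 arrays r of their levels was 0.745, while r of their deviations from group means was 0.00960. For Scd1 with Srebf1 these were 0.553 and -0.315. Scd1 with Me1, the malic enzyme that supplies NADPH, had 0.818 by levels and 0.857 by deviations, and Me1 also had 0.835 with Fads1 and 0.845 with Elovl5 by deviations. Elovl6 was unlike Fasn in both measures (-0.157 and -0.0393). These values describe 13 arrays and were not tested.

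**Figure D5:**
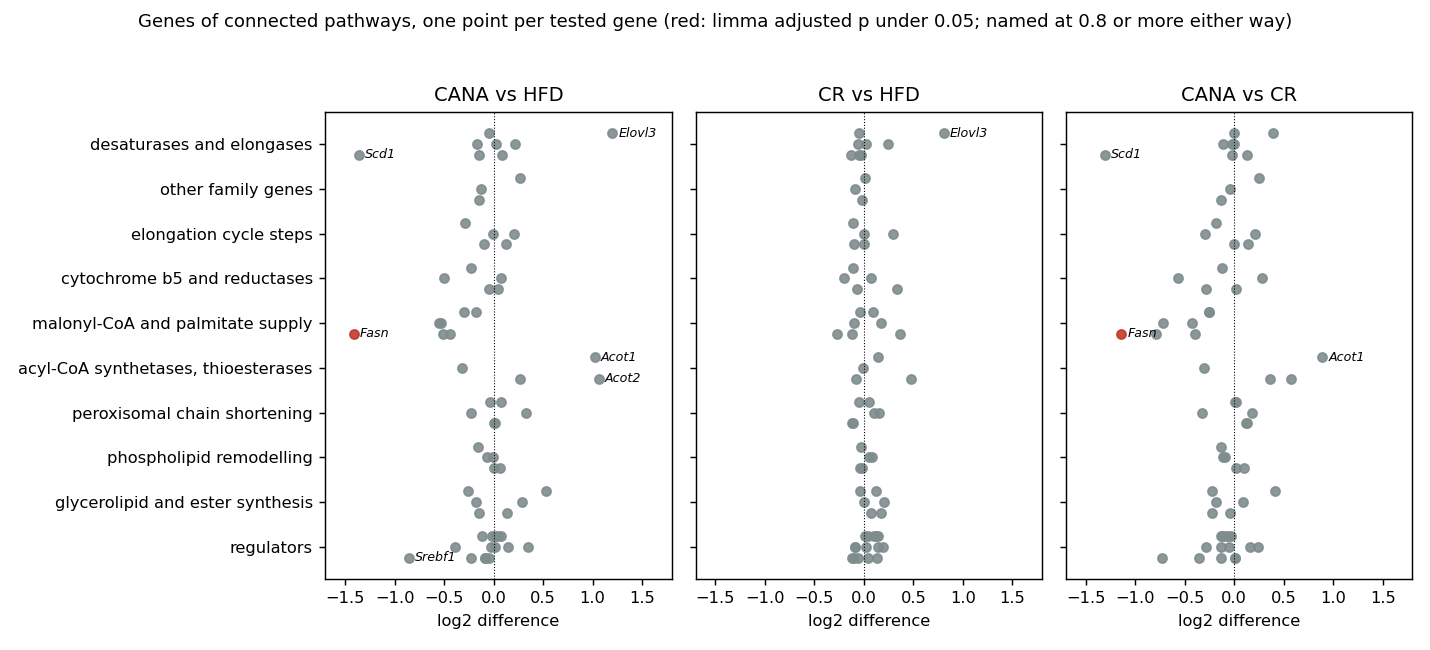
Log2 differences of the tested genes of each list in CANA minus HFD, CR minus HFD and CANA minus CR, with 1 point per gene (red at a limma adjusted p under 0.05), a line at zero and names at 0.8 or more either way. All 7 points of the substrate supply list lie below zero in both comparisons of CANA, and the points of the lists for the elongation cycle and electron transfer lie on both sides.

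Partners of the enzymes showed no called gene. Limma called 0.165% of all tested genes in CANA against HFD, 0% in CR against HFD and 0.150% in CANA against CR. A count of 0 in a list this short, here and in the lists below, is near those shares. The rest of each elongation cycle is done by a reductase, a dehydratase and a second reductase. Of 5 tested genes of these steps 0 were called by limma, with medians of -0.01 in CANA minus HFD, -0.00 in CR minus HFD and -0.00 in CANA minus CR. Hacd2, a dehydratase, differed by -0.29 in CANA minus HFD (limma adjusted p = 0.513), and its relative Hacd1 by 0.21 (adjusted p = 0.648). Tecr, the last reductase, differed by 0.29 in CR minus HFD (adjusted p = 0.999) and by -0.30 in CANA minus CR (adjusted p = 0.656).

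Cytochrome b5 and its reductases bring electrons to the desaturases, and 0 of 5 tested genes were called in any comparison. Cyb5b had the smallest p in both comparisons of CANA, at -0.50 against HFD (limma adjusted p = 0.388) and -0.57 against CR (adjusted p = 0.295). Cyb5r3 differed by 0.33 in CR minus HFD (unadjusted p = 0.0312, adjusted p = 0.999) and by -0.29 in CANA minus CR (adjusted p = 0.594). Other members of the desaturase and elongase families gave 3 tested genes and 0 calls: Degs1 at 0.27 in CANA minus HFD (adjusted p = 0.520), Fads3 at -0.15 (adjusted p = 0.809) and Fads6 at -0.13 (adjusted p = 0.769). Scd3, Scd4, Elovl4, Elovl7 and Degs2 were below the filter. Scd1 to Scd4 are adjacent paralogs, and how far their probes share signal was not tested.

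Genes that use the products were also without a call. Among 4 tested genes for acyl-CoA activation and hydrolysis the median was 0.65 in CANA minus HFD, with Acot1 at 1.02 (limma adjusted p = 0.192), Acot2 at 1.06 (adjusted p = 0.361) and Acsl5 at -0.32 (adjusted p = 0.388). In CR minus HFD the median was 0.06 and in CANA minus CR 0.47. The 6 tested genes of peroxisomal beta-oxidation, which trims the precursor of docosahexaenoic acid, had a median of 0.00 in CANA minus HFD, with Acaa1a at 0.33 (adjusted p = 0.544). The 5 tested genes for polyunsaturated phospholipids had a median of -0.01, and the 6 for glycerolipids and cholesteryl esters -0.00, with Lpin2 at 0.53 (adjusted p = 0.126).

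Among 15 tested regulators 0 passed the limma test in any comparison; 9 were below zero in CANA minus HFD, 5 in CR minus HFD and 11 in CANA minus CR. Srebf1, the gene of SREBP-1, had the smallest p in both comparisons of CANA. It averaged 7.78 ± 0.45 in CANA, 8.52 ± 0.28 in CR and 8.64 ± 0.17 in HFD (SD, n = 4, 5 and 4). The differences were -0.85 in CANA minus HFD (SE 0.19, limma adjusted p = 0.108) and -0.73 in CANA minus CR (adjusted p = 0.185), and CR minus HFD was -0.12 (adjusted p = 0.999). Mlxipl, the gene of the glucose-responsive factor ChREBP, differed by -0.39 in CANA minus HFD (adjusted p = 0.480) and -0.29 in CANA minus CR (adjusted p = 0.623), and by -0.09 in CR minus HFD (adjusted p = 0.999).

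Nr1h3, the gene of LXR-alpha, differed by 0.04 in CANA minus HFD (limma adjusted p = 0.963), 0.12 in CR minus HFD (adjusted p = 0.999) and -0.09 in CANA minus CR (adjusted p = 0.852). Ppara differed by -0.05 (adjusted p = 0.962), -0.06 (adjusted p = 0.999) and 0.01 (adjusted p = 0.998) in the same comparisons by limma. Insig2, which holds SREBP in the endoplasmic reticulum, differed by 0.35 in CANA minus HFD (limma adjusted p = 0.579). All its CANA arrays were above all HFD arrays, as for 2.13% of all tested genes. Insig2 differed by 0.19 in CR minus HFD (limma adjusted p = 0.999) and by 0.16 in CANA minus CR (adjusted p = 0.840). Insig1, itself a target of SREBP, differed by -0.23 in CANA minus HFD (limma adjusted p = 0.878), 0.13 in CR minus HFD (adjusted p = 0.999) and -0.36 in CANA minus CR (adjusted p = 0.729). By deviations, Insig1 had r = 0.846 with Elovl2, 0.835 with Fads2, 0.813 with Fads1, 0.719 with Elovl3, 0.682 with Elovl5 and 0.444 with Scd1, and lower values with Elovl6 (0.256) and Elovl1 (0.0107). Mlxipl had -0.724 with Fads2. These correlations were not tested.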

How the data were processed

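Total RNA of liver was isolated with TRIzol and 250 ng were labelled with biotin, per the labels' protocols. The authors deposited log2 values of 41345 probe sets on 13 arrays, made with RMA in Affymetrix Expression Console per the submitters' processing notes; versions and detection limits are not given in the sources used here. Probe sets were named from the platform's annotation: 23521 carried 1 symbol (23328 matched a RefSeq table by Entrez identifier), 1814 several and 16010 none. For the 1082 genes with several probe sets, the one with the highest mean was taken. Dim genes, those under the 40th percentile of mean level, were dropped, and 13308 genes with means of at least 3.95 remained.

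All genes were fitted with limma 3.58.1 in R 4.3.3, in 1 model of the 3 groups over 13 arrays (10 residual and 5.71 prior degrees of freedom). Genes were called at a two-sided Benjamini-Hochberg adjusted p under 0.05. Single genes were also compared by exact permutation tests, and pairs of genes by 100000 permutations of arrays within groups. The comparisons with HFD share the HFD arrays. The number of arrays limits the precision.

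The genes and lists were chosen with earlier results of these data known. Named are 8 of the 9 genes (Scd2 is described only) and 6 regulators in every comparison, per list the called genes and up to 3 with the smallest p, and the 3 genes closest to each gene. Ratios to Scd1 within arrays and the choice of promoters were added after values were seen. The 30 other settings changed the filter, normalization, probe-set choice, variance model, arrays, blocks or threshold. The fit was tested on simulated data.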

Additional observations from a re-analysis of the deposited data

How the results depend on the processing

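The number of arrays limits these results, and the number of called genes moved with the settings. For the 8 genes, the count called was 0 in each comparison. In CANA against HFD it was 1, Scd1, with genes under the 60th percentile left out, with only the arrays of the compared groups, with the serial number as a covariate or at an adjusted p of 0.10, and 2, Scd1 and Elovl3, with the serial-number set as a block. In CANA against CR it was 1, Scd1, with that block or at 0.10. Leaving out 1 array at a time gave 0 to 1 in both. Over all genes, 22 were called in CANA against HFD; this became 12 with no filter, 14 and 39 with filters at the 20th and 60th percentile, 40 with the serial covariate, 46 with the set as a block, 2 and 0 within serial numbers 1 to 8 and 9 to 14, 56 at 0.10, and 3 to 38 with 1 array left out. In CANA against CR, 20 became 5 and 0 within the serial-number sets, 34 at 0.10 and 7 to 23 with 1 array left out. In CR against HFD, 0 became 1 with the replicate number or the serial-number set as a block and with the serial covariate. The exact permutation test gave 0 in all comparisons. Its smallest p was 0.0286 in CANA against HFD and 0.00794 in each comparison with CR. Such a p passes the adjustment only where a large share of all genes reach it.

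Same-numbered arrays of different groups had deviations that correlated at -0.15 to 0.296 over genes, so the replicate number was not treated as a pairing. With the replicate number as a block, Scd1 was at -1.36 in CANA minus HFD (limma adjusted p = 0.0584), -0.24 in CR minus HFD and -1.11 in CANA minus CR (adjusted p = 0.133), 0 of the 8 genes were called in any comparison, and 29, 1 and 17 of all genes were called in CANA against HFD, CR against HFD and CANA against CR.

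Scd1 stayed below zero in both comparisons of CANA, and Elovl3 above zero in both comparisons with HFD, in all 28 refits. With 1 array left out, Elovl6 ranged from 0.00 to 0.39 in CANA minus HFD and 0.02 to 0.41 in CR minus HFD, lowest without HFD array 2, and Elovl3 from 0.52 to 1.04 in CR minus HFD. Signs turned for differences that had not passed the test. Within serial numbers 9 to 14, Elovl2 was at -0.04 in CANA minus HFD; in CR minus HFD, Scd1 was at 0.33, Fads1 at 0.08, Fads2 at 0.07 and Elovl6 at -0.16; in CANA minus CR, Elovl1 was at 0.05, Elovl3 at -0.05 and Elovl6 at 0.50. Within numbers 1 to 8, Elovl5 was at 0.02 in CR minus HFD and Elovl2 at 0.02 in CANA minus CR. With the serial covariate, Elovl2 was at -0.00 in CR minus HFD, and in CANA minus CR Fads2 was at 0.06, Elovl1 at 0.00, Elovl2 at 0.04 and Elovl6 at 0.08. The set as a block put Elovl5 at 0.00 in CR minus HFD. The replicate block put Elovl2 at -0.01 in CR minus HFD, and Fads2 at 0.09 and Elovl2 at 0.03 in CANA minus CR. In CANA minus CR, centring put Fads2 at 0.00 and Elovl2 at 0.01, and array weights put Elovl6 at 0.04. With 1 array left out, CANA minus HFD ranged from -0.15 to 0.04 for Fads2, -0.05 to 0.06 for Elovl2 and -0.08 to 0.21 for Elovl5. CR minus HFD ranged from -0.24 to 0.14 for Scd1, -0.15 to 0.05 for Fads1, -0.15 to 0.06 for Fads2, -0.05 to 0.08 for Elovl2 and -0.21 to 0.09 for Elovl5. CANA minus CR ranged from -0.11 to 0.09 for Fads2, -0.13 to 0.03 for Elovl1, -0.06 to 0.05 for Elovl2 and -0.17 to 0.15 for Elovl6. The cause was not tested for any of these.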

Other observations

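The probe set that carries the symbols of both Scd2 and Mir5114 was left out of the comparisons, since its signal belongs to no single gene. It read 5.68, 5.48, 5.47 and 5.59 in CANA livers, 5.56, 5.91, 5.36, 5.51 and 5.50 in CR livers, and 5.08, 5.67, 5.13 and 5.93 in HFD livers. Its means were 5.56 ± 0.10 in CANA, 5.57 ± 0.21 in CR and 5.45 ± 0.42 in HFD (SD, n = 4, 5 and 4), and the groups overlapped.

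Fabp4, a fatty acid carrier used here as a fat cell marker, read 5.75, 6.65, 6.47 and 5.96 in CANA livers, 5.77, 5.40, 5.46, 5.44 and 5.55 in CR livers, and 5.60, 5.99, 5.06 and 5.46 in HFD livers. Its CANA minus HFD difference was 0.68 (limma adjusted p = 0.245), and Adipoq and Lep were below the filter on dim genes. The summed level of the 5 markers of fat cells with a probe set was 20.47 to 21.84 in CANA, 19.75 to 20.89 in CR and 20.58 to 20.92 in HFD. Its part in the values of Scd1 and Elovl3 was not tested.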
